A study of Mus musculus with 48 samples.

Results

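The genes described here encode 8 surface, lysosomal and recognition proteins of macrophages and other phagocytes. They are the lectin Lgals3, the adhesion receptor Adgre1 (F4/80), the endotoxin co-receptor Cd14, the lysosomal protein Cd68, the pore-forming protein Mpeg1, the toll-like receptors Tlr2 and Tlr4, and the membrane protease Adam8. They were chosen by name, with earlier results of these data known. Their counts and medians below, set beside those of all probe sets, are therefore descriptions and not tests. Every probe set annotated to 1 of the 8 genes was read. They are 8 of the 18193 genes with a probe set on the array, and 11 of its 45037 probe sets. The filter on low signals kept 10 of the 11, and 27167 probe sets in all. Tlr4 has 4 probe sets, 3 of which were tested, and each other gene has 1. Mpeg1 exceeded the filter only in the Δ(177-191) groups at 6, 9 and 12 h, so it could be tested at all only because its signal was high there. Its calls in comparisons with that line, and its place in the counts of called genes below, are therefore descriptions only.

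RNA came from 32D cells, a mouse myeloid progenitor line, that express the p210 BCR/ABL oncoprotein, the kinase fusion of chronic myelogenous leukemia. Every culture carried the MigRI retroviral vector, in 1 of 4 forms. The vector was empty, or it encoded the transcription factor C/EBPα joined to a fragment of the estrogen receptor that binds its ligand, a fusion written C/EBPα-ER, and 4-hydroxytamoxifen (4-HT) brings that protein into the nucleus. The fusion was wild type (WT), K298E, described in the labels as deficient in binding DNA, or Δ(177-191), described as deficient in binding CDK2 and CDK4. Cells of each of the 4 lines were collected at 0, 6, 9 and 12 h after 4-HT, and 3 arrays were run per line and time, which makes 48 arrays. The design holds 1 line per construct, so a construct and the history of its line cannot be told apart. It holds no culture without 4-HT at a later time. The labels call the arrays triplicates in one place and separate experiments in another, so a p-value here reflects no more than the scatter among the arrays, which may be technical.

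As background, phagocytes recognise microbes through surface receptors of several kinds. Tlr2 senses bacterial lipoproteins, and Tlr4 senses endotoxin that Cd14 hands to it with the help of Ly96. Both signal through Myd88 and the Irak kinases to NF-kB. Adgre1 is the antigen by which mouse macrophages are commonly sorted. Cd68 is a heavily glycosylated protein of late endosomes and lysosomes. Mpeg1 inserts pores into membranes of engulfed bacteria. Lgals3 binds galactose-bearing sugars, and Adam8 sheds membrane proteins of leukocytes. C/EBPα, a basic leucine zipper factor, drives progenitors towards granulocytes and monocytes.

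Because C/EBPα binds DNA directly and the K298E mutant is described as deficient in this, the 250 bases upstream of the start of a gene were searched for the C/EBP core. RefSeq promoters of assembly GRCm38.p6 were used for 5 of the 8 genes, and those of Adgre1, Cd14 and Tlr4 were not used here. Windows that lie outside every annotated gene span are printed 5′ to 3′ on the strand of the gene, with matches to the core TTNNGNAA, read on both strands, in capitals. Cd68 had the most matches of the 5 genes, while Lgals3 and Mpeg1 had 0.
Lgals3, chr14:47373610-47373859, plus strand: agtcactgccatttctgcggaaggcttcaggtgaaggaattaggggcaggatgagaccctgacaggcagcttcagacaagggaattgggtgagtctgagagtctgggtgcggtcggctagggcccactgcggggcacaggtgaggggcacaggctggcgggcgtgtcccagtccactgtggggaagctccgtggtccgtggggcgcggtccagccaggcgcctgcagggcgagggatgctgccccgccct
Cd68, chr11:69666171-69666420, minus strand: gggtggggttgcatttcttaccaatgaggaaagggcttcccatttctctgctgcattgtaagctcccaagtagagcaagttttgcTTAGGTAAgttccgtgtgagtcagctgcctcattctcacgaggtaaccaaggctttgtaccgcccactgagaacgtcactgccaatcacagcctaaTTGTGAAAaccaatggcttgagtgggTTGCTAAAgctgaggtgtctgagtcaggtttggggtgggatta
Mpeg1, chr19:12460520-12460769, plus strand: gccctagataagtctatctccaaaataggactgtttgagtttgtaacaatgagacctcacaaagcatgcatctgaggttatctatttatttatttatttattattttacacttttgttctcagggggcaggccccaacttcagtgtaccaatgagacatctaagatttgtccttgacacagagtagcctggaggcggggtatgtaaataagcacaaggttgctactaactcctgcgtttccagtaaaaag

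In the Cd68 window the cores are TTAGGTAA, 165 to 158 bases before the start, TTGTGAAA, 69 to 62 bases before it, and TTGCTAAA, 43 to 36 bases before it. The same window holds the AP-1 core TGANTCA at 149 to 143 and at 24 to 18 bases before the start, and the PU.1 core GAGGAA at 225 to 220. None of these overlap. In the Tlr2 window 1 C/EBP core, TTCCAGAA, lies 245 to 238 bases before the start. The Adam8 window holds 1 C/EBP core, TTGCTCAA, 219 to 212 bases before the start. Both of those windows overlap an annotated span of their own gene and are not printed whole. Of 32851 RefSeq promoter windows of 250 bases, 36.8% hold at least 1 C/EBP core and 2.61% hold 3 or more. GAGGAA occurs in 23.3% and TGANTCA in 6.75%. A match is a description of letters, and a window without one says only that these letters are not in it.

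Signals are MAS5 intensities scaled to a common mean, and the median over all probe sets and arrays was 14. Each array had a median signal between 11 and 19. Signals of different probe sets were not set against each other, since a probe set's signal also depends on its probes. As a check of the labels, the brightest probe set of Esr1, whose product the fusion carries in part, read 18.3 ± 1.15 (SD, n = 3) in vector cells at 0 h, 2475 ± 214 in WT cells, 1439 ± 145 in K298E cells and 3263 ± 446 in Δ(177-191) cells. Its K298E level was the lowest of the 3 fusions. The leukocyte gene Ptprc had group means of 1478 to 4383, and Spi1 (PU.1) of 388 to 1709. Of 31 macrophage and monocyte genes with a probe set, 10 had a group mean above 100 and 8 had none above 14. The high ones included the signalling adaptors Fcer1g at 1774 to 4776 and Tyrobp at 784 to 3358, with Itgam reaching 1726 and Ctss 559. The 8 low ones were C1qa, C1qc, Mertk, Maf, Timd4, Ms4a7, Vsig4 and Cd86, several of which mark resident tissue macrophages. C1qb reached 17.7 and Cx3cr1 18.3, and Csf1r, the receptor for macrophage growth factor, had group means of 40.0 to 80.0. The summed signal of the 31 genes per array was 3356 to 4505 for vector, 4425 to 6310 for WT, 4400 to 5157 for K298E and 10323 to 13224 for Δ(177-191). Such a sum gives most weight to the brightest probe sets. In Δ(177-191) cells at 0 h its median was 12369, with means of 3358 for Tyrobp, 2195 for Lyz1 and 1929 for Lyz2. The sum over 13 neutrophil granule genes was 454 to 1051 for vector, 1531 to 4871 for WT, 1108 to 2874 for K298E and 4754 to 13957 for Δ(177-191). In Δ(177-191) cells Lcn2 alone made up most of it. Its means there were 2880 at 0 h and 6483 at 12 h, beside median sums of 4990 and 7066. Whether the lines differ in cell state, and whether that has a part in the values below, was not tested. In bulk RNA, more cells that express a gene and more RNA per cell cannot be told apart.

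**Figure D1:**
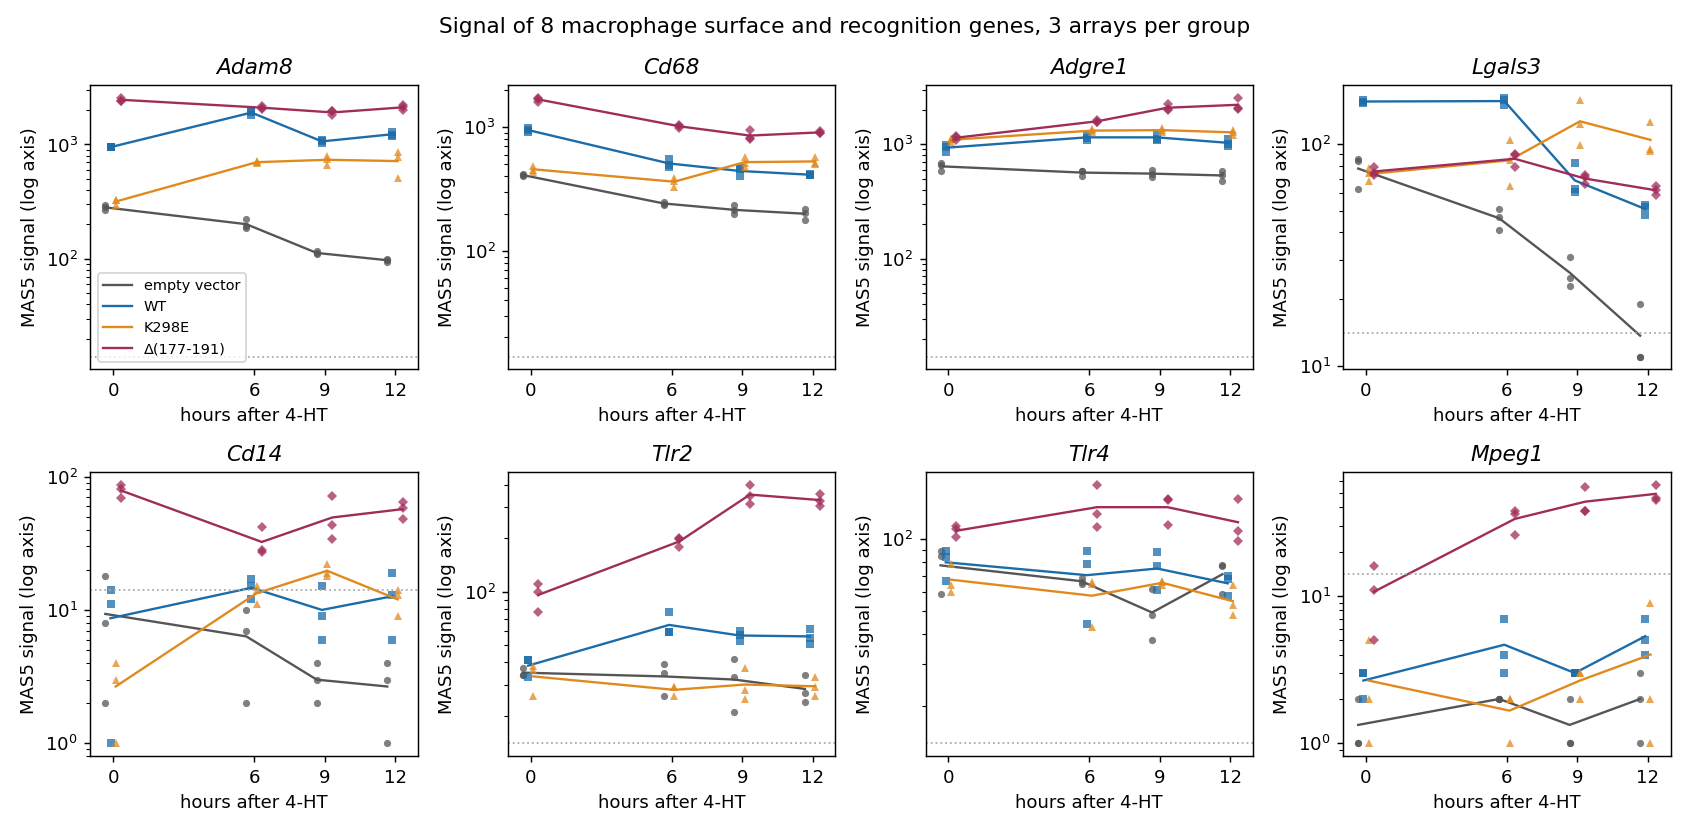
Signal of the brightest probe set of each of the 8 genes on a log axis against hours after 4-HT (0, 6, 9 and 12 h) in the 4 lines. Points are single arrays, lines join means of 3 arrays, and the dotted line marks a signal of 14, the median of all probe sets. Adam8 and Cd68 at 0 h are highest in Δ(177-191) cells, at means of 2459 and 1675, and Lgals3 in vector cells descends to 11 to 19 at 12 h.

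Before 4-HT the lines already differed. At 0 h, Δ(177-191) cells had higher signals than vector cells for Adgre1, Cd14, Cd68, Mpeg1, Tlr2 and Adam8, WT cells for Lgals3, Adgre1, Cd68 and Adam8, and K298E cells for Adgre1. None of the 8 genes was called lower in a fusion line. A gene was called at an adjusted p under 0.05 in limma, with Benjamini-Hochberg adjustment over the 27167 probe sets. The 6 genes called in Δ(177-191) cells stand beside 23.0% of all probe sets called there (10.4% higher, 12.6% lower), the 4 in WT cells beside 4.06% (2.07% and 2.00%), and the 1 in K298E cells beside 4.82% (2.22% and 2.60%). The median log2 difference of the 8 genes was 1.47 in Δ(177-191) cells, 0.46 in WT cells and 0.04 in K298E cells, against -0.01, 0.00 and -0.01 over all probe sets tested. All 3 comparisons use the same 3 vector arrays. The 8 genes were counted by their brightest probe sets, while the shares and medians over all probe sets include dimmer ones. Mpeg1, 1 of the 6 genes called in Δ(177-191) cells, could be tested only through the treated groups of that line.

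Adam8, the leukocyte protease, read 282 ± 16.5 (SD, n = 3) in vector cells at 0 h and 317 ± 16.2 in K298E cells. The WT arrays read 942, 945 and 956, and those of Δ(177-191) cells 2555, 2405 and 2418. Only vector and K298E arrays overlapped. Its 0 h difference from vector was 3.11 ± 0.10 (SE, log2; 8.65-fold; limma adjusted p = 3.63e-27) in Δ(177-191) cells and 1.74 ± 0.10 (3.34-fold; adjusted p = 2.46e-17) in WT cells. In K298E cells it was 0.17 (95% interval -0.03 to 0.37).

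Cd68, the lysosomal glycoprotein, read 410, 415 and 405 in vector cells at 0 h, 980, 910 and 954 in WT, 435, 454 and 481 in K298E, and 1696, 1725 and 1603 in Δ(177-191) cells. No array of one line overlapped with another line. The difference from vector was 2.02 ± 0.08 on the log2 scale in Δ(177-191) cells (4.06-fold; limma adjusted p = 6.88e-24) and 1.20 in WT cells (2.30-fold; adjusted p = 3.72e-15). The K298E difference was 0.15 (95% interval -0.01 to 0.31) and did not pass.

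Cd14, the endotoxin co-receptor, was near the floor outside Δ(177-191) cells at 0 h. Its arrays read 18, 2 and 8 in vector cells, 11, 14 and 1 in WT, 1, 3 and 4 in K298E, and 87, 69 and 80 in Δ(177-191) cells. Every Δ(177-191) array was above every other 0 h array, and the other 3 lines overlapped or lay at signals whose order is not resolved. The Δ(177-191) difference from vector was 2.95 ± 0.43 (log2; limma adjusted p = 5.82e-07), and 1.44 when 32 was added to each signal in place of 3. Mpeg1 at 0 h read 1, 2 and 1 in vector cells, 2, 3 and 3 in WT, 5, 1 and 2 in K298E, and 5, 11 and 16 in Δ(177-191) cells. Its Δ(177-191) difference of 1.58 (limma adjusted p = 0.00106) came from levels under or close to the median of all signals. Without replicate 3 of every group it was 1.24 (limma adjusted p = 0.104).

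Tlr2 read 37, 34 and 34 in vector cells at 0 h and 111, 100 and 77 in Δ(177-191) cells, a difference of 1.37 (log2; 2.58-fold; limma adjusted p = 5.72e-08). WT arrays at 33 to 41 and K298E arrays at 26 to 38 overlapped with vector arrays. Adgre1 was the 1 gene called in all 3 fusion lines at 0 h, with log2 differences of 0.54 for WT, 0.77 for K298E and 0.83 for Δ(177-191) (limma adjusted p at most 1.66e-05). Its vector arrays read 580, 688 and 656, and all fusion arrays lay at 861 or above. Under median centring of the arrays the WT difference was 0.39 (limma adjusted p = 0.218). Lgals3 at 0 h was called in WT cells alone, by 0.99 (1.99-fold; limma adjusted p = 5.90e-05), with WT arrays at 154 to 159 and all other arrays at 63 to 86. Tlr4 had signals of 59 to 89 in vector cells and 102 to 113 in Δ(177-191) cells. That difference, 0.49 ± 0.20, had a limma adjusted p of 0.0804, and 0.0425 after quantile normalization.

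**Figure D2:**
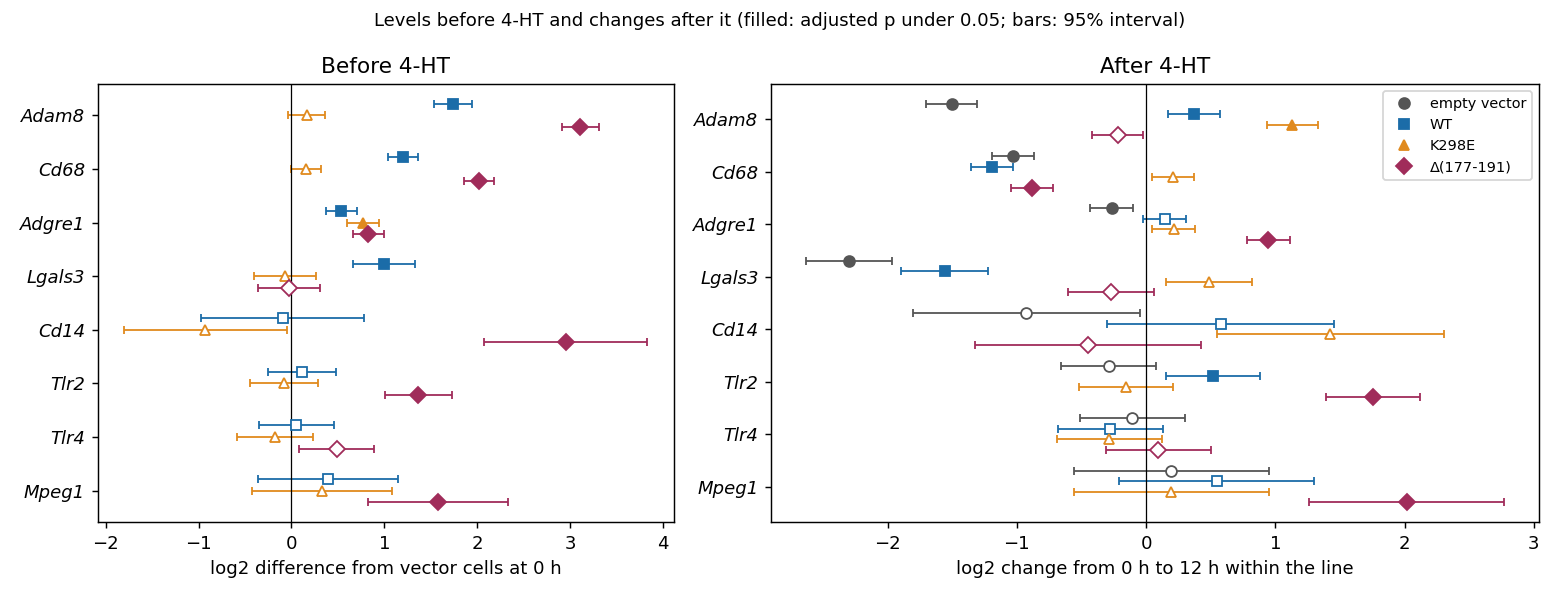
Each of the 8 genes by its log2 difference from vector cells at 0 h and by its own log2 change from 0 to 12 h in each line. In Δ(177-191) cells Adam8 starts 3.11 above vector and changes by -0.22, while in K298E cells it starts 0.17 above vector and changes by 1.13.

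After 4-HT each line was compared with its own 0 h arrays. In vector cells, Lgals3, Adam8, Cd68 and Adgre1 fell by 12 h and none of the 8 genes rose. WT cells had higher Adam8 and Tlr2 and lower Cd68 and Lgals3 at 12 h. K298E cells had higher Adam8 alone. Δ(177-191) cells had higher Mpeg1, Tlr2 and Adgre1 and lower Cd68. These counts of 4, 4, 1 and 4 genes stand beside 13.6%, 25.4%, 1.80% and 25.2% of all probe sets called in vector, WT, K298E and Δ(177-191) cells at 12 h. The directions were 0 higher and 4 lower in vector cells (6.11% and 7.51% of all probe sets), 2 and 2 in WT (12.1% and 13.4%), 1 and 0 in K298E (0.795% higher), and 3 and 1 in Δ(177-191) cells (11.0% and 14.2%). Leaving out replicate 1 or replicate 2 of every group took the WT count to 2. Over the 8 genes the median 12 h change came to -0.61 for vector, 0.26 for WT, 0.21 for K298E and -0.06 for Δ(177-191) cells, against -0.03, -0.07, 0.00 and -0.03 over all probe sets.

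The counts at the earlier times lay between 3 and 5 in every line. At 6 h, vector cells had 3 genes called (15.5% of all probe sets), WT cells 4 (26.1%), K298E cells 4 (9.23%) and Δ(177-191) cells 5 (24.6%). At 9 h, vector cells had 4 called (14.9%), WT cells 4 (24.9%), K298E cells 4 (3.81%) and Δ(177-191) cells 5 (26.8%).

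A stricter description asks for all 9 treated arrays of a line to lie on one side of its 0 h arrays. In vector cells Lgals3, Cd68 and Adam8 lay below throughout, as did 8.36% of all probe sets, and 0 of the 8 genes lay above (6.31%). WT arrays were above for Tlr2 and Adam8 (8.43% of all probe sets) and below for Cd68 (10.9%). K298E arrays were above for Adgre1, Cd14 and Adam8 (1.81%) and below for 0 (2.49%). Δ(177-191) arrays were above for Adgre1, Mpeg1 and Tlr2 (7.38%) and below for Cd68 and Adam8 (10.0%).

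Lgals3 encodes galectin-3. In vector cells its arrays read 63, 86 and 84 at 0 h, 47, 41 and 51 at 6 h, 23, 31 and 25 at 9 h, and 19, 11 and 11 at 12 h. The groups did not overlap, and the 12 h level lay close to the median of all signals. The change to 12 h was -2.30 ± 0.17 on the log2 scale (4.91-fold lower; limma adjusted p = 5.11e-14), and it was -1.26 when 32 was added in place of 3. WT cells held 150, 158 and 162 at 6 h, which overlapped with the 0 h arrays, and then 63, 82 and 61 at 9 h and 53, 52 and 48 at 12 h. The WT change was 0.01 at 6 h (95% interval -0.33 to 0.34), -1.16 at 9 h and -1.56 at 12 h (limma adjusted p = 3.52e-10). K298E arrays moved the other way, from 74, 68 and 78 at 0 h to 159, 123 and 99 at 9 h and 126, 95 and 93 at 12 h. All K298E arrays at 9 and 12 h lay above those at 0 h, with a change of 0.74 at 9 h (limma adjusted p = 0.00343) and of 0.48 at 12 h, which did not pass (adjusted p = 0.153). Δ(177-191) arrays ran from 73 to 79 at 0 h to 59 to 65 at 12 h, and none of their 3 changes passed. The order of the lines turned over: WT was highest at 0 and 6 h, K298E at 9 and 12 h, and at 12 h no neighbours in the order K298E, Δ(177-191), WT, vector overlapped.

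Adgre1 is the F4/80 antigen. Its Δ(177-191) arrays read 1081, 1152 and 1183 at 0 h, 1628, 1577 and 1549 at 6 h, 2265, 1972 and 2010 at 9 h, and 2538, 2014 and 2073 at 12 h. Each time after 0 h lay above the 0 h arrays, and 9 and 12 h overlapped. The change to 12 h was 0.95 ± 0.08 (1.93-fold; limma adjusted p = 2.26e-12). WT cells rose by 0.30 at both 6 and 9 h and had a change of 0.14 at 12 h that did not pass. K298E cells rose by 0.27 at 6 h (limma adjusted p = 0.0343) and by 0.28 at 9 h (adjusted p = 0.0468), with a 12 h change of 0.21 that did not pass. Vector cells went from 580, 688 and 656 to 585, 475 and 540 at 12 h, and these groups overlapped. That change of -0.27 had a limma adjusted p of 0.0248. The call was lost under 8 of 17 alternatives, among them leaving out vector replicate 2 or 3 at 0 h or at 12 h (adjusted p of 0.0513 to 0.214). From 6 h on the lines kept the order Δ(177-191), K298E, WT, vector with no overlap between neighbours.

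Cd68 fell in 3 lines. Vector arrays went from 410, 415 and 405 at 0 h to 236, 248 and 241 at 6 h and 178, 203 and 218 at 12 h, a change of -1.03 ± 0.08 (2.04-fold lower; limma adjusted p = 3.54e-13). WT arrays went from 980, 910 and 954 to 556, 493 and 478 at 6 h and 411, 407 and 420 at 12 h, a change of -1.19 (2.29-fold lower; limma adjusted p = 6.73e-16). Δ(177-191) arrays went from 1696, 1725 and 1603 to 1039, 1029 and 981 at 6 h and 900, 897 and 928 at 12 h, a change of -0.88 (1.84-fold lower; limma adjusted p = 5.13e-12). In each of these lines all 9 treated arrays lay below the 0 h arrays. K298E arrays read 331, 370 and 386 at 6 h, a fall of 0.33 from 0 h (limma adjusted p = 0.00358), and 510, 500 and 576 at 12 h, above all 0 h arrays. Their 12 h change of 0.21 did not pass (adjusted p = 0.243). Neighbouring lines did not overlap at any of the 4 times, and K298E passed WT in the order between 6 and 9 h.

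Mpeg1, or perforin-2, was at or near the floor in the lines other than Δ(177-191). Over all times, vector arrays read 1 to 3, WT arrays 2 to 7 and K298E arrays 1 to 9, all below the median of all signals. Δ(177-191) arrays read 5, 11 and 16 at 0 h, 36, 38 and 26 at 6 h, 38, 38 and 55 at 9 h, and 46, 57 and 45 at 12 h. Every treated array was above every 0 h array, and the treated times overlapped. The change was 1.48 at 6 h, 1.84 at 9 h and 2.02 ± 0.37 at 12 h (4.05-fold on the log2(signal + 3) scale; limma adjusted p = 3.52e-05). With 32 added in place of 3 the 12 h change was 0.94. The treated Δ(177-191) groups are also those through which Mpeg1 passed the filter, so these calls only describe the signals.

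For Adam8 the vector line fell while WT and K298E cells rose. Vector arrays went from a mean of 282 at 0 h to 192, 188 and 223 at 6 h, 112, 110 and 116 at 9 h, and 94, 98 and 100 at 12 h, a change of -1.50 ± 0.10 (2.84-fold lower; limma adjusted p = 4.48e-15). WT arrays rose from 942, 945 and 956 to 1967, 1924 and 1812 at 6 h, read 1036, 1091 and 1065 at 9 h, and 1293, 1191 and 1202 at 12 h. The WT change was 1.0 at 6 h (limma adjusted p = 6.01e-11), 0.17 at 9 h, which did not pass, and 0.37 at 12 h (adjusted p = 0.00327). Without replicate 1 of every group the 12 h change had a limma adjusted p of 0.0517, and without replicate 2 of 0.0618. K298E arrays went from a mean of 317 to 719, 684 and 697 at 6 h and 865, 777 and 505 at 12 h, with changes of 1.14 at 6 h, 1.20 at 9 h and 1.13 at 12 h (2.19-fold; limma adjusted p = 1.62e-10). Of the K298E arrays at 12 h, replicate 3 was the lowest, and without it the change was 1.37. Δ(177-191) arrays went from 2555, 2405 and 2418 to 1961, 1949 and 1807 at 9 h, a change of -0.37 (limma adjusted p = 0.00358), and to 1994, 2137 and 2203 at 12 h, a change of -0.22 that did not pass (adjusted p = 0.104). The order Δ(177-191), WT, K298E, vector held at all 4 times, and only K298E and vector overlapped, at 0 h.

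Among the receptors, Tlr2 rose in Δ(177-191) and WT cells. Δ(177-191) arrays read 111, 100 and 77 at 0 h, 178, 198 and 200 at 6 h, 401, 345 and 311 at 9 h, and 356, 323 and 305 at 12 h. All treated arrays lay above those at 0 h, with changes of 0.99 at 6 h, 1.85 at 9 h and 1.75 ± 0.18 at 12 h (3.37-fold; limma adjusted p = 1.44e-10). WT arrays read 41, 33 and 41 at 0 h, 77, 59 and 59 at 6 h, and 62, 51 and 55 at 12 h, also without overlap. Their change was 0.71 at 6 h (limma adjusted p = 0.00199) and 0.52 at 12 h (adjusted p = 0.0295). The 12 h call was lost on leaving out WT replicate 2 at 0 h (0.42, adjusted p = 0.146), WT replicate 1 at 12 h (0.44, adjusted p = 0.123) or WT replicate 3 at 12 h (0.53, adjusted p = 0.0600). K298E arrays stayed within 25 to 38 over all times and vector arrays within 21 to 42, and no change passed in either line.

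Tlr4 had few changes called. Its brightest probe set at 0 h read 59 to 89 for vector, 67 to 89 for WT, 60 to 79 for K298E and 102 to 113 for Δ(177-191), and 59 to 78, 58 to 70, 48 to 64 and 98 to 147 at 12 h. The 12 h changes were -0.11, -0.28, -0.29 and 0.10 in the same order, and none passed. With a standard error of 0.20, the 95% interval in Δ(177-191) cells was -0.31 to 0.50. The 1 change called in this probe set was the vector fall at 9 h, of 0.63 (limma adjusted p = 0.0266), from 89, 59 and 85 to 62, 38 and 48. A dimmer Tlr4 probe set differed at 6 h: it rose in Δ(177-191) cells from 64, 45 and 58 to 87, 84 and 104 (0.70, limma adjusted p = 0.0211) and fell in K298E cells from 34, 49 and 29 to 24, 8 and 22 (by 1.02, adjusted p = 0.00204). The other tested Tlr4 probe set had no change called, and the untested one read 0 to 14 throughout.

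Cd14 stayed highest in Δ(177-191) cells at every time, without overlap with another line. Its arrays there read 87, 69 and 80 at 0 h, 28, 42 and 27 at 6 h, 34, 71 and 43 at 9 h, and 48, 65 and 58 at 12 h. The 6 h change was -1.23 ± 0.43 (limma adjusted p = 0.0324), and the 12 h change of -0.45 did not pass. K298E arrays went from 1, 3 and 4 at 0 h to 15, 14 and 11 at 6 h, 19, 22 and 18 at 9 h, and 13, 9 and 14 at 12 h, with changes of 1.56 at 6 h (limma adjusted p = 0.0145), 2.03 at 9 h (adjusted p = 0.00225) and 1.43 at 12 h (adjusted p = 0.0856). No treated K298E array overlapped with 0 h. These signals straddle the median of all probe sets, so the size of the change depends on the added 3.

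To set the constructs against the response of the vector line, the vector cells' change since 0 h was subtracted from that of each fusion line. At 12 h this relative change was called higher for Adam8 and Adgre1 in WT cells. In K298E cells it was higher for Lgals3, Adam8, Cd14, Cd68 and Adgre1, and in Δ(177-191) cells for Tlr2, Lgals3, Mpeg1, Adam8 and Adgre1. No gene was called lower. The WT count was 1 when replicate 3 of vector or of WT at 0 h, or replicate 2 of vector or of WT at 12 h, was left out. The 2 genes in WT cells stand beside 5.38% of all probe sets (2.85% higher, 2.53% lower), the 5 in K298E cells beside 4.20% (2.47% and 1.73%) and the 5 in Δ(177-191) cells beside 17.1% (8.09% and 9.01%). At 6 h 2, 1 and 3 genes were called, all higher, beside 4.77%, 0.942% and 13.9% of all probe sets, and at 9 h 2, 5 and 6, all higher, beside 4.62%, 3.89% and 17.3%. The median relative change of the 8 genes was 0.57 for WT, 0.86 for K298E and 1.25 for Δ(177-191), against -0.04, 0.03 and -0.01 over all probe sets. The 3 comparisons share the vector arrays, so the falls of Lgals3, Cd68 and Adam8 in vector cells enter all of them.

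**Figure D3:**
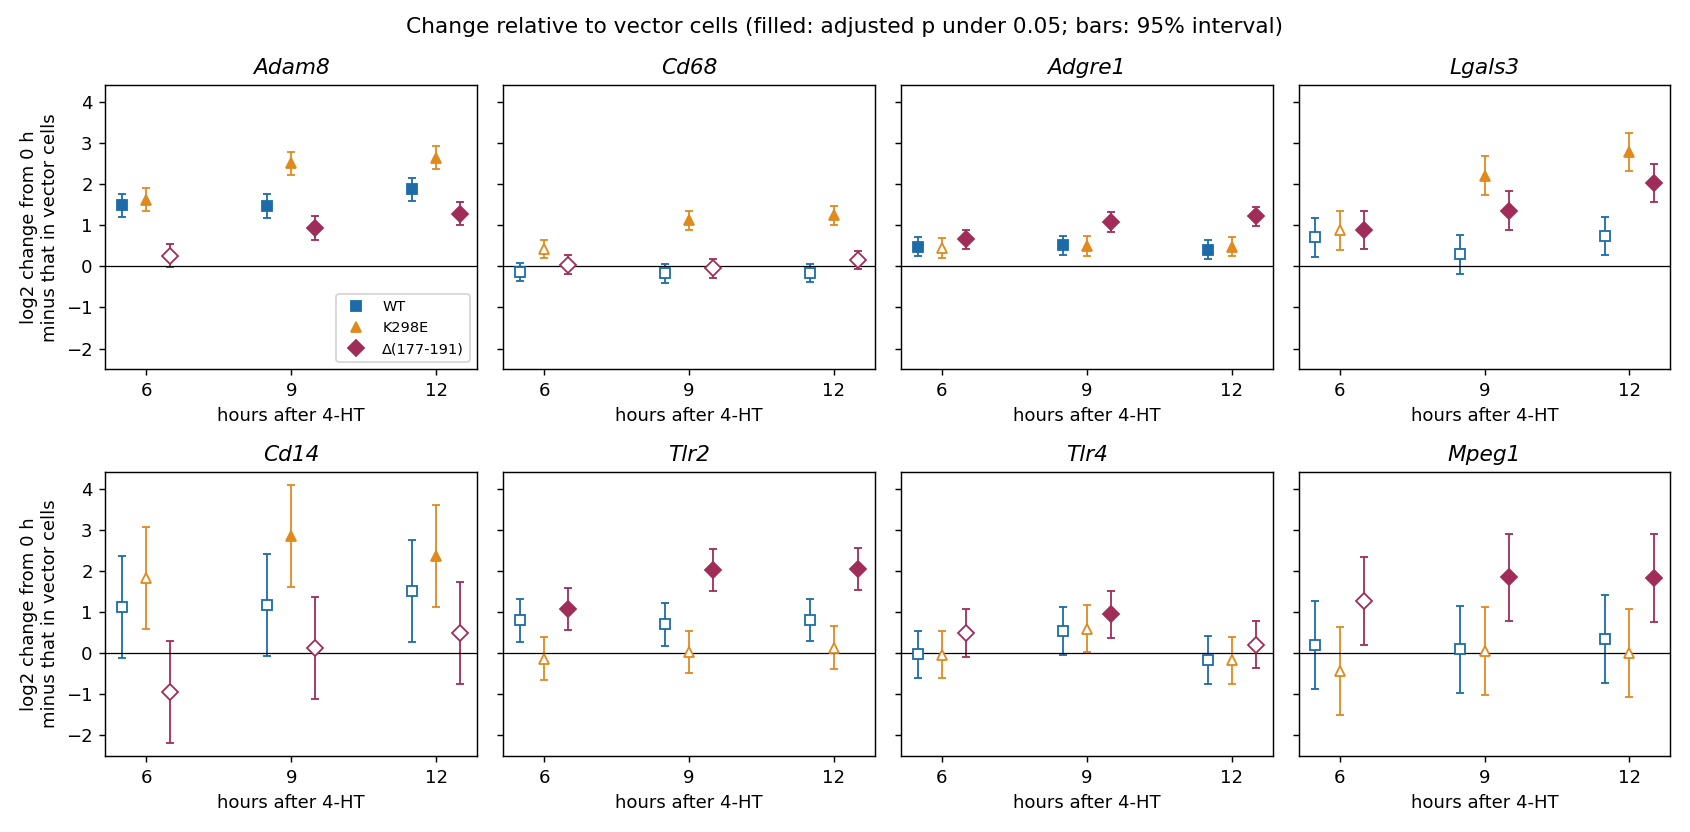
Relative change (log2, the line's change since 0 h less that of vector cells) of each gene at 6, 9 and 12 h in the 3 fusion lines, with 95% intervals. At 12 h Adam8 lies at 1.88 for WT, 2.64 for K298E and 1.28 for Δ(177-191), while Tlr4 lies between -0.18 and 0.20.

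The relative change of Adam8 at 12 h was 1.88 ± 0.14 in WT cells (limma adjusted p = 1.70e-13), 2.64 ± 0.14 in K298E cells (adjusted p = 1.68e-17) and 1.28 ± 0.14 in Δ(177-191) cells (adjusted p = 1.48e-09). In Δ(177-191) cells this value holds no rise of the line itself, whose own change was -0.22, and the vector fall of 1.5 with its sign turned makes up the rest. Lgals3 had 2.78 ± 0.23 in K298E cells (limma adjusted p = 3.36e-11) and 2.03 in Δ(177-191) cells (adjusted p = 5.77e-09), again beside own changes of 0.48 and -0.27 that did not pass. With 32 added in place of 3 the K298E value was 1.63 and the Δ(177-191) value 1.07. In WT cells Lgals3 had 0.74 and missed the threshold (limma adjusted p = 0.0540). That value was 0.08 with 32 added in place of 3 (limma adjusted p = 0.905), and it passed without vector replicate 1 at 0 h (0.88, adjusted p = 0.0223) or at 12 h (0.95, adjusted p = 0.00585).

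Cd68 had a relative change of 1.24 ± 0.11 in K298E cells (2.36-fold, limma adjusted p = 2.14e-10). Its own change there of 0.21 did not pass, and in vector cells Cd68 fell by 1.03. The relative change was -0.16 (95% interval -0.39 to 0.07) in WT and 0.15 (95% interval -0.08 to 0.38) in Δ(177-191) cells. Tlr2 had 2.04 ± 0.26 in Δ(177-191) cells (4.12-fold; limma adjusted p = 3.62e-08), 0.81 in WT cells (adjusted p = 0.0538) and 0.13 in K298E cells (95% interval -0.38 to 0.65). The WT mean over 6, 9 and 12 h passed, at 0.77 ± 0.21 (limma adjusted p = 0.0136), in a comparison with 3 of the 8 genes and 7.26% of all probe sets called. Mpeg1 had 1.82 ± 0.53 in Δ(177-191) cells (limma adjusted p = 0.0109), and without Δ(177-191) replicate 1 at 0 h it was 1.48 (adjusted p = 0.0585). Mpeg1 could be tested only through this line, so the call is a description.

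Adgre1 had relative changes of 0.41 ± 0.12 in WT cells (limma adjusted p = 0.0274), 0.48 in K298E cells (adjusted p = 0.00956) and 1.21 in Δ(177-191) cells (adjusted p = 8.50e-11). The own changes of 0.14 in WT and 0.21 in K298E cells did not pass. The WT call was lost without vector replicate 2 or 3 at 0 h, vector replicate 2 at 12 h, WT replicate 3 at 0 h or WT replicate 2 at 12 h, with values of 0.33 to 0.39 and limma adjusted p of 0.0701 to 0.135. The K298E call was lost without vector replicate 2 at 12 h (0.40, limma adjusted p = 0.0530). Under median centring neither passed (limma adjusted p of 0.174 and 0.634). Cd14 had 2.35 ± 0.61 in K298E cells, from 12 h signals of 9 to 14, beside an own change of 1.43 that did not pass. The relative change was called (limma adjusted p = 0.0165). That call was lost with 32 added in place of 3 (0.58, limma adjusted p = 0.0854), and without replicate 1 of vector at 0 h (1.85, adjusted p = 0.0955), of vector at 12 h or of K298E at 0 h (2.12 in both, adjusted p of 0.0630 and 0.0574). Median centring also lost it (2.30, limma adjusted p = 0.0732). Leaving out replicate 1 or replicate 3 of every group did so too (1.33 and 2.45, limma adjusted p of 0.538 and 0.142). In WT cells Cd14 had 1.51, which did not pass (limma adjusted p = 0.190), and 2.04 without vector replicate 2 at 0 h, which read 2 (adjusted p = 0.0413). Tlr4 had no relative change called at 12 h. At 9 h the relative change of its brightest probe set in Δ(177-191) cells was 0.94 (limma adjusted p = 0.0156), beside an own change of 0.31 and the vector fall. Its other tested probe sets had 0.24 and 0.33 there, not called (limma adjusted p of 0.715 and 0.776). The first of these was instead called higher at 6 h (1.26, limma adjusted p = 0.00484), where the brightest had 0.49 (adjusted p = 0.322). The Tlr4 probe sets thus did not share a called time.

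Whether the WT response differs from that of the mutants was tested on the mean change over 6, 9 and 12 h. Against K298E, WT cells had a lower mean change of Lgals3, Cd68 and Adam8 and a higher one of Tlr2, 4 genes beside 13.7% of all probe sets (6.59% higher, 7.08% lower). The difference was -1.37 ± 0.19 for Lgals3 (limma adjusted p = 6.35e-07), -1.08 ± 0.09 for Cd68 (adjusted p = 4.51e-12), -0.65 ± 0.11 for Adam8 (adjusted p = 4.92e-05) and 0.76 ± 0.21 for Tlr2 (adjusted p = 0.00902). Lgals3 and Cd68 fell in WT cells and not in K298E cells at 12 h, whereas Adam8 rose in both. The lines started from different levels for all of Lgals3, Cd68 and Adam8. Their 0 h differences from vector were 0.99, 1.20 and 1.74 in WT cells. In K298E cells they were -0.07, 0.15 and 0.17. The part of these starting levels in the differences was not tested. The Adam8 difference was -0.50 under median centring (limma adjusted p = 0.0837). Without WT replicate 2 at 0 h the Tlr2 difference was 0.66 (limma adjusted p = 0.0502). For Adgre1 the difference was -0.00 (95% interval -0.20 to 0.19), and for Cd14, Mpeg1 and Tlr4 it did not pass, at -1.09, 0.34 and -0.01. Without WT replicate 3 at 0 h the Cd14 difference was -1.74 and passed (limma adjusted p = 0.0131).

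Against Δ(177-191), WT cells had a higher mean change of Adam8 and Cd14 and a lower one of Lgals3, Adgre1, Mpeg1 and Tlr2, 6 genes beside 19.8% of all probe sets (10.5% higher, 9.32% lower). The values were 0.79 for Adam8 (limma adjusted p = 7.49e-07), -0.84 for Lgals3 (adjusted p = 0.000813), -0.52 for Adgre1 (adjusted p = 6.02e-05), -0.94 for Tlr2 (adjusted p = 0.000586), -1.43 ± 0.43 for Mpeg1 (adjusted p = 0.0130) and 1.38 ± 0.50 for Cd14 (adjusted p = 0.0460). The Cd14 call was lost under 21 of 35 alternatives, and without WT replicate 3 at 0 h, which read 1, the difference was 0.73 (limma adjusted p = 0.351). Without Δ(177-191) replicate 1 at 0 h the Mpeg1 difference was -1.09 (limma adjusted p = 0.0986). Mpeg1 was tested only through the treated Δ(177-191) groups, which enter this difference. Under median centring Lgals3 (limma adjusted p = 0.0994), Adgre1 (0.250) and Mpeg1 (0.116) were not called. Cd68 differed by -0.20 (95% interval -0.39 to -0.02; limma adjusted p = 0.123) and Tlr4 by -0.43 (adjusted p = 0.219). The 2 comparisons share the WT arrays.

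Other genes of the same pathways were counted by their relative change at 12 h, with the brightest probe set for each gene. Over all probe sets these comparisons called 2.85% higher and 2.53% lower in WT cells, 2.47% and 1.73% in K298E cells, and 8.09% and 9.01% in Δ(177-191) cells. Of 172 tested entries of the lists, 26 exceeded the filter in 1 line only, so for them a call can rest on the line that let them be tested. The lists, like the 8 genes, were chosen with earlier results of these data known. Of 12 tested toll-like receptors and co-receptors, none was called in WT cells, 1 was higher in K298E cells and 2 were higher in Δ(177-191) cells, beside 5.38%, 4.20% and 17.1% of all probe sets called. In K298E cells it was Unc93b1, which carries nucleic acid-sensing receptors to endosomes, at 0.92, where the line's own change of 0.11 did not pass and the vector signal went from 146 to 83.0. In Δ(177-191) cells the receptor chaperone Hsp90b1 had 0.60 and Tlr13, a sensor of bacterial ribosomal RNA, 1.77. Tlr13 exceeded the filter only in Δ(177-191) cells. Among 24 genes of toll-like receptor signalling, 2 were higher and 2 lower in WT, 5 and 1 in K298E, and 8 and 2 in Δ(177-191) cells, beside the same shares. Irak3, an inhibitory kinase of the pathway, had 2.46 in WT cells, from 134 to 497, and 1.44 in K298E cells, from 91.7 to 174. Irf7 had 1.61, 1.88 and 2.35, of which the own change passed only in Δ(177-191) cells (0.85, limma adjusted p = 0.00884). Ikbkg, the regulatory subunit of the IKK complex, had -0.61 in WT and -0.79 in Δ(177-191) cells, Tab3 had -0.47 in WT and Map3k7 (TAK1) -0.39 in K298E cells, whose own change of 0.14 did not pass. In Δ(177-191) cells the adaptor Pik3ap1 had 1.43 and the inhibitory receptor Sigirr -0.84.

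Of 19 NF-kB target genes, 1 was higher and 1 lower in WT cells, 5 and 0 in K298E, and 12 and 0 in Δ(177-191) cells, beside 5.38%, 4.20% and 17.1% of all probe sets called. The chemokine gene Ccl3 had 4.44 in Δ(177-191) cells, from 57.3 to 927, and Cxcl2 had 3.20 there, from 242 to 646. Cxcl2 had 1.85 in WT and 1.63 in K298E cells, where its own changes of 0.05 and -0.17 did not pass and its vector signal went from 43.0 to 10.7. Tnf had -1.02 in WT cells, where it went from 66.3 to 26.0. Ccl5 had 1.97 in K298E cells, where its own change of -0.17 did not pass and its vector signal went from 54.0 to 11.3. At 0 h, 15 of the 19 were already higher in Δ(177-191) than in vector cells and 0 lower, beside 10.4% and 12.6% of all probe sets. The medians at 12 h were -0.08, 0.50 and 0.96, against -0.04, 0.03 and -0.01 over all probe sets.

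Among 22 tested macrophage and monocyte genes, 2 were higher and 2 lower in WT, 3 and 0 in K298E, and 6 and 3 in Δ(177-191) cells, beside 5.38%, 4.20% and 17.1% of all probe sets called. Their medians were -0.25, 0.07 and -0.32, against -0.04, 0.03 and -0.01 over all probe sets. Itgam, the integrin chain CD11b, had 2.78, 1.80 and 1.78, and the Fc receptor gene Fcgr1 had 1.02 in WT and 1.85 in Δ(177-191) cells. Ctss, a lysosomal protease, had -1.42 and Axl, a receptor kinase, -0.72 in WT cells. The lysozyme genes went in opposite directions in different lines: Lyz2 had 1.15 in K298E and -2.00 in Δ(177-191) cells, and Lyz1 had -2.28 in Δ(177-191) cells, where it went from 2195 to 393. The similar sequences of Lyz1 and Lyz2 can share signal on an array. Of 14 scavenger and lectin receptors 3, 4 and 5 were higher (2.85%, 2.47% and 8.09% of all probe sets) and 0 lower. Clec4e (Mincle) had 2.33, 2.01 and 2.86, beside own changes of 0.95, 0.64 and 1.49 and a vector signal that went from 296 to 112. Cd93 had 1.39 in WT cells, beside an own change of 0.85. Clec4d had 1.07 in K298E cells, where its own change of 0.27 did not pass. Olr1 had 2.42 in Δ(177-191) cells, from 3.33 to 28.3, and exceeded the filter only there.

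The gene families of single members were counted as well, in comparisons that called 5.38%, 4.20% and 17.1% of all probe sets in WT, K298E and Δ(177-191) cells. Of 8 tested genes of the galectin list, which includes the galectin-binding protein gene Lgals3bp, none was called in K298E cells. Lgals9 was lower in WT cells (-1.19, from 1677 to 760) and in Δ(177-191) cells (-0.40). In Δ(177-191) cells Lgals3bp was also lower (-0.39) and Lgals8 higher (1.12). In the ADAM family of 10, Adam17, which sheds Tnf, was higher in WT (0.48) and Δ(177-191) cells (0.85), Adam9 in Δ(177-191) cells (0.98) and Adam22 in K298E cells (2.17, from 2.33 to 15.3). Adam22 exceeded the filter in the K298E group at 12 h alone, so it was tested only through the group in which it was called higher. Of 7 adhesion G protein-coupled receptors, the family of Adgre1, Adgrg1 alone was called, at -1.05 in WT and -2.07 in Δ(177-191) cells. Among 13 lysosome and phagosome membrane proteins, the family in which Cd68 acts, 3 were higher and 1 lower in WT, 2 and 0 in K298E, and 6 and 1 in Δ(177-191) cells, beside 2.85% and 2.53%, 2.47% and 1.73%, and 8.09% and 9.01% of all probe sets. They included the proton pump subunit Atp6v1a (0.49 in WT, 0.95 in Δ(177-191) cells), Lamp2 (0.43 in WT), Cd74 (1.21 in K298E, 0.82 in Δ(177-191) cells), Stx7 (0.39 in K298E) and Vamp8 (-0.71 in WT, -0.58 in Δ(177-191) cells). Own changes did not pass for Lamp2 in WT (0.21), Stx7 in K298E (0.12) and Cd74 in Δ(177-191) cells (0.16).

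Markers of other cells were counted in the same comparisons, which called 5.38%, 4.20% and 17.1% of all probe sets. Of 11 tested neutrophil granule genes, 4, 2 and 2 were higher and 0, 0 and 3 lower in WT, K298E and Δ(177-191) cells, with Mpo at 4.61 in WT (from 16.3 to 385) and Lcn2 at 3.18, 1.69 and 2.99. In K298E cells Lcn2 went from 220 to 201, an own change of -0.15 that did not pass, and in vector cells from 437 to 120. Among 10 genes of hematopoietic identity, 2, 0 and 4 were higher and 1, 0 and 1 lower, and Myb had -2.28 in Δ(177-191) cells. Of 5 mast cell and basophil genes 1, 1 and 2 were higher and 1, 0 and 2 lower. The higher calls in K298E and Δ(177-191) cells were Hdc and Cma1, at group means of at most 11.3 in those lines at 0 and 12 h, and both exceeded the filter in 1 vector group only. Of 8 erythroid and megakaryocyte genes 0, 1 and 1 were higher and 1, 1 and 1 lower. None of 4 lymphoid and 5 fibroblast genes was called. The part of these shifts in the values of the 8 genes was not tested.

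How the 8 genes varied together was described over the 48 arrays, which share lines, times and any array-wide effect, so the coefficients carry no test. On log2 signals the highest Pearson correlations were 0.93 for Tlr2 with Mpeg1, 0.85 for Cd68 with Adam8 and 0.83 for Adgre1 with Adam8. With the mean of each line taken out, Adgre1 and Tlr2 had 0.80, Lgals3 and Cd68 0.65, Lgals3 and Adam8 0.65, and Tlr2 and Mpeg1 0.61. Cd68 then had -0.48 with Tlr2, -0.49 with Mpeg1 and -0.39 with Adgre1.

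**Figure D4:**
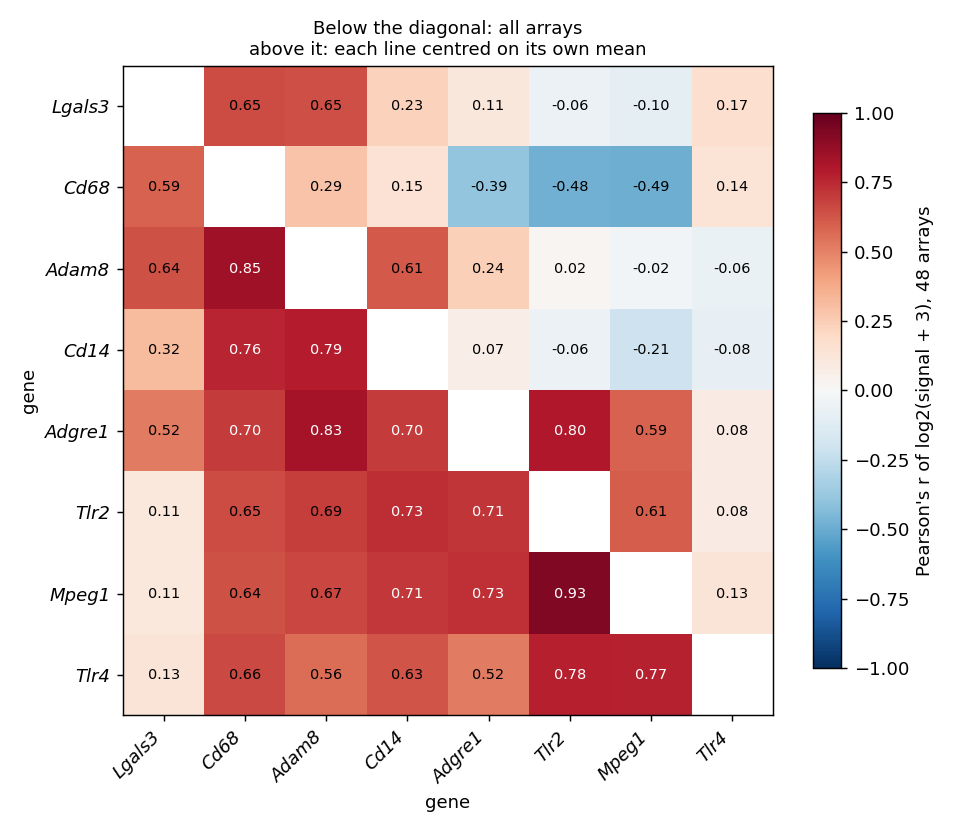
Pearson correlations between the 8 genes over 48 arrays on log2(signal + 3), as measured and with each line's mean taken out. Tlr2 with Mpeg1 has 0.93 and 0.61 in these views, and Cd68 with Tlr2 has -0.48 within lines. Mpeg1 read 14 or less on 38 of the 48 arrays.

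By the same correlation over 48 arrays, the genes most like each member among 12748 others were named. Adam8 was most like Dhrs3, Itgam and Ccl9 (0.94 each), and Cd68 like Trp53inp1 (0.95), Tyrobp (0.94) and Cd52 (0.93). Tlr2 was most like Iqsec1, Pde4b and Ezr (0.97 each), and Mpeg1 like Adam17 (0.95), Ezr and Wfdc17 (0.94 each). The Mpeg1 values rest mostly on Δ(177-191) cells, the 1 line in which it exceeded the filter. For Adgre1 they were Ccl9, Paqr7 and Trem1 (0.89 each), and for Cd14 Clec5a (0.87), Ccr1 and Stfa2l1 (0.86 each). Lgals3 had lower values, with P2rx4 and Aqp9 (0.82 each) and Galnt6 (0.78), and Tlr4 had Specc1, Napg and Arfip1 (0.83 each). Clec5a, for example, had a mean signal of 632 at 0 h and 697 at 12 h in Δ(177-191) cells and at most 18.0 in the other lines at those times, and Tyrobp went from 1278 to 784 in vector cells as Cd68 fell there.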

How the data were processed

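Signal intensities of 48 arrays (Affymetrix MOE430_2) were used as deposited, in whole numbers on a linear scale; the submitters' processing notes name MAS5, with the version not given in the sources used here. The mean signal, trimmed by 2% at each end, was the same on every array to within rounding. Of 45101 probe sets, 64 controls were left out. The platform annotation gave 1 symbol for 34945, several for 932 and none for 9160, and symbols were updated from a RefSeq gene table. Detection calls were not used here, and no pair of arrays held identical values.

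A constant of 3, the 20th percentile of the signals, was added before taking log2, which understates changes of low genes. A probe set was tested if any of 16 group means exceeded log2 4.09 (a signal of 14). The 16 means were estimated with limma 3.58.1 under R 4.3.3, with a mean-variance trend over all 48 arrays (32 residual degrees of freedom), with two-sided tests and Benjamini-Hochberg adjustment over 27167 probe sets. The number of arrays limits the precision. The script was tested on simulated data. Same-numbered arrays of different groups did not deviate together (144 pairs, median correlation 0.0158), so the numbers were not used as a block.

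The 8 genes were named always. From each of 15 lists (239 entries, 221 with a probe set, 172 tested), up to 2 highest and 2 lowest calls per relative change were named, and for each gene the 3 most correlated. The genes and lists were chosen with earlier results of these data known. Alternatives were other added constants, filters, scalings, array weights, a replicate block, the compared arrays alone, and leaving out arrays.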

Additional observations from a re-analysis of the deposited data

Results flagged for a closer look

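These values are listed because the change after 4-HT differed between lines under a test of the difference itself (limma, adjusted p under 0.05). WT minus K298E, the mean change differed by -1.37 for Lgals3, -1.08 for Cd68, 0.758 for Tlr2 and -0.645 for Adam8. WT minus Δ(177-191), it differed by -0.842 for Lgals3, -0.515 for Adgre1, 1.38 for Cd14, -1.43 for Mpeg1, -0.945 for Tlr2 and 0.786 for Adam8. Against Δ(177-191), the Cd14 call was lost under 21 of 35 alternatives, and those of Lgals3, Adgre1 and Mpeg1 under median centring. Against K298E, the Adam8 call was lost under median centring and the Tlr2 call under 3 of 35 alternatives. Mpeg1 was tested only through the treated Δ(177-191) groups. Groups of 3 arrays are too small for a check of single arrays that stand apart.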

How the results depend on the processing

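Single values of the 8 genes were recomputed 2048 times over 96 results: 1873 kept their direction and side of the threshold, 82 (in 21 results) stayed uncalled but changed sign, 73 kept the direction and lost the call, 20 gained one, and 0 turned a called direction. The count of genes called relative to vector at 12 h in WT cells, 2, became 4 with array weights, and 1 to 3 when arrays were left out. In K298E cells the same count, 5, became 3 under median centring and 3 to 5 with arrays left out. WT minus Δ(177-191), 6, became 3 under median centring and 4 to 6 with arrays left out. WT at 12 h against 0 h, 4, became 2 to 4 with arrays left out. Median centring moved the median of all probe sets for WT relative to vector from -0.04 to 0.14 and for WT minus Δ(177-191) from -0.06 to 0.15. With a replicate block, Tlr2 in WT cells relative to vector passed (0.81, limma adjusted p = 0.0465) and Cd14 in WT minus Δ(177-191) did not (1.38, adjusted p = 0.0510), and no other call of these genes changed. The cause of these shifts was not tested. Cd14 and Mpeg1 lay near the floor in most groups, which limits what their folds can show.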
